A study of Mus musculus with 6 samples.

Results

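The insulin-like growth factor (IGF) family was described in aortic arch plaque as 10 genes: the ligands Igf1 and Igf2, the receptors Igf1r and Igf2r, and the binding proteins Igfbp2 to Igfbp7. They were chosen by gene symbol, and all 10 were found among the 24062 symbols of the deposited count table and among the 15222 genes kept after a filter on low counts. The plaque came from mice of strain C57BL/6 that lack the low-density lipoprotein receptor, so that every animal in both groups carried the same knockout. Feeding was the same in both groups: 12 weeks on a high-fat diet (TD88137), then 3 weeks on a low-fat diet up to the day they were killed. In week 1 of the low-fat diet they received vehicle (3 libraries) or ABT263 at 100 mg/kg by intraperitoneal injection, 1 dose per day (3 libraries). ABT263, or navitoclax, blocks anti-apoptotic proteins of the BCL-2 family and serves as a senolytic, an agent that kills senescent cells. The sources used here do not give the age or sex of the mice, the number of treatment days, or whether each library came from its own animal. If libraries shared animals, part of the spread behind the p-values below is technical.

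IGF1 and IGF2 are secreted peptides that act on cells through the IGF1 receptor, a tyrosine kinase that feeds the PI3 kinase and MAP kinase pathways. The IGF2 receptor, which is also the cation-independent mannose 6-phosphate receptor, carries lysosomal enzymes and removes IGF2. Binding proteins hold the ligands in the tissue and in blood. They can keep them from the receptor or release them when a protease cuts the binding protein. In arteries IGF1 is known as a survival and growth factor of smooth muscle cells. The series title names senescent cells and the repair functions of smooth muscle. For this family the comparison asks whether IGF1 and its binding proteins, IGFBP3 above all, differed after ABT263.

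Library totals ran from 62930547 to 110452098 counts. Levels are a gene's counts relative to the library total after TMM scaling (CPM), and a gene with a count of 0 could hold up to 3 counts, or at most 0.0477 CPM, by counting error alone. Marker lists of smooth muscle, macrophages and endothelium were present in all 6 libraries, with summed levels of at least 2407, 7339 and 502 CPM. The markers of 3 libraries stood apart. ABT263 replicate 2 held 3279.8 CPM of 8 white adipocyte markers against 2.34 to 5.23 CPM in the other 5 libraries, and 525 CPM of 5 mesothelial markers against 0.612 to 2.40 CPM. Vehicle replicate 2 held 502 CPM of 8 endothelial markers against 1777 to 5219 CPM elsewhere. ABT263 replicate 3 held 41.7 CPM of 7 skeletal muscle markers against 6.30 to 8.64 CPM, and both it (9743 CPM) and ABT263 replicate 2 (15763 CPM) held more of 8 contractile smooth muscle markers than the other 4 libraries (2407 to 3593 CPM). The fold change of each family member is therefore given with and without ABT263 replicate 2, and also without vehicle replicate 2 or ABT263 replicate 3 where these move it most. The RNA is from bulk tissue, in which fewer cells of a type and less RNA per cell cannot be told apart.

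No IGF family gene passed an adjusted p of 0.05 in the quasi-likelihood test of edgeR with Benjamini-Hochberg adjustment over all 15222 genes, which called 0% of them (0 genes). Its smallest adjusted p was 0.592, and 1276 genes had an unadjusted p under 0.05. DESeq2 called 153 genes at an adjusted p of 0.05 and limma-voom 0. At an unadjusted p under 0.05, 3 of the 10 family members were higher with ABT263, where 4.70% of all genes were, and 0 of 10 were lower, where 3.68% were. Those 3 were the binding proteins Igfbp4, Igfbp5 and Igfbp6. Without vehicle replicate 2 none of the 3 passed that unadjusted threshold (edgeR adjusted p = 0.626 for each). Groups did not overlap for 1 member on the higher side (Igfbp6), against 5.68% of all genes, and for 0 on the lower side, against 6.31%. Fold changes were positive for 7 of 10 members, against 50.1% of all genes, and their median was 0.56 on the log2 scale against 0.00080 over all genes.

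Leaving out ABT263 replicate 2 changed which members differed. At an unadjusted p under 0.05, 1 member was higher (Igfbp6, against 1.50% of 15433 genes tested) and 0 were lower (against 2.73%). Groups then did not overlap for Igfbp6 on the higher side (8.31% of all genes) and for Igfbp2 on the lower side (9.12%). The median fold change of the 10 was 0.56, with 8 positive.

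**Figure D1:**
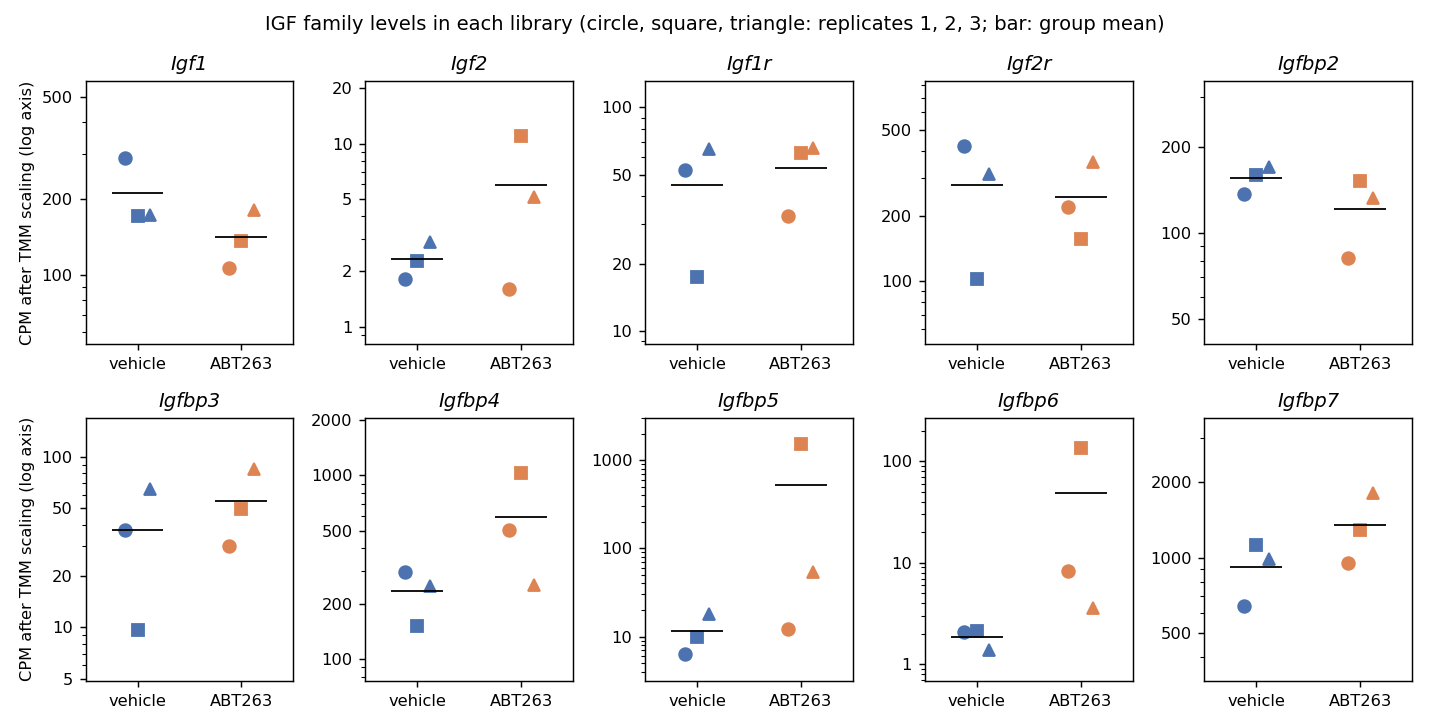
CPM after TMM scaling (log axis, a separate scale for each gene) of the 10 IGF family genes in the 3 vehicle (blue) and 3 ABT263 (orange) libraries, with symbols for replicates 1 to 3 and a bar at each group mean. Igfbp5 and Igfbp6 are far higher in ABT263 replicate 2 (square) than in any other library, while Igf1r, Igf2r and Igfbp3 are lowest in vehicle replicate 2 (square).

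Levels of different genes can be set side by side only per length, so CPM was divided by the kilobases of exon in the GENCODE M21 basic annotation (RPKM). In vehicle plaque the order began with Igfbp7 (759 ± 204, SD, n = 3) and went on to Igfbp2 (107 ± 11.4) and Igfbp4 (59.6 ± 19.04). Igf2r followed at 31.3 ± 18.1, Igf1 at 21.3 ± 6.88 and Igfbp3 at 11.9 ± 8.80 RPKM. The low end held Igf1r (3.94 ± 2.16), Igfbp5 (1.90 ± 0.999), Igfbp6 (1.68 ± 0.384) and Igf2 (0.444 ± 0.105). Igfbp7 did not overlap with Igfbp2, Igfbp2 with Igfbp4, or Igfbp6 with Igf2 over the 3 vehicle libraries. From Igfbp4 down to Igfbp6, the range of every gene overlapped with that of the next in order. Compared within each vehicle library, Igfbp4 (76.0, 38.7 and 64.0 RPKM) was always above Igf2r (47.1, 11.5 and 35.3 RPKM). Igfbp3 (11.8, 3.10 and 20.7 RPKM) was likewise always above Igf1r (4.61, 1.53 and 5.69 RPKM). The other neighbours of that stretch changed order between libraries. Among genes farther apart in the order, all vehicle libraries of Igfbp4 (38.7 to 76.0 RPKM) lay above those of Igf1 (17.3 to 29.3 RPKM).

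Igf1, the ligand that smooth muscle responds to (chromosome 10, 87858265 to 87937042, mm10), stood at 290.1, 171 and 173 CPM in vehicle replicates 1 to 3 and at 107, 136 and 180.4 CPM in ABT263 replicates 1 to 3. The 2 lowest libraries were ABT263 libraries, the highest was vehicle replicate 1, and the groups overlapped because ABT263 replicate 3 lay above 2 vehicle libraries. Group means were 211 ± 68.2 and 141 ± 36.8 CPM (SD, n = 3), a log2 fold change of -0.58 (SE 0.31, 95% interval -1.31 to 0.15, edgeR adjusted p = 0.652). The interval reaches to both sides of 0. This log2 fold change became -0.55 (SE 0.37) without ABT263 replicate 2, and without vehicle replicate 1 it was -0.29. Macrophages are a known source of IGF1, and the 10 macrophage markers summed to 14285 to 22199 CPM with vehicle and 7339 to 14137 CPM with ABT263, with none of the 10 at 0. Groups did not overlap on the lower side for 6 of the 10, against 6.31% of all genes. Lyz2, the largest of them, overlapped, with 9734 to 15540 CPM against 5106 to 10147 CPM. The part of macrophages in the Igf1 values was not tested.

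Igf2, the ligand best known from fetal growth, was the lowest member per length, with 113 to 741 reads per library. It stood at 1.81, 2.27 and 2.91 CPM with vehicle and at 1.60, 10.98 and 5.13 CPM with ABT263. ABT263 replicates 2 and 3 were above every vehicle library and ABT263 replicate 1 was below all of them. The log2 fold change was 1.34 (SE 0.67, 95% interval -0.26 to 2.94, edgeR adjusted p = 0.630), and 0.53 (SE 0.56) without ABT263 replicate 2. Of the exon bases of Igf2 (chromosome 7, 142650766 to 142666816, mm10), 70.4% overlap the exons of Gm49394 on the same strand or of the antisense gene Igf2os, so its counts are uncertain. Igf1 exceeded Igf2 in RPKM by 31.4 to 85.0 times in the vehicle libraries and by 35.5, 6.59 and 18.6 times in ABT263 replicates 1 to 3.

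Neither receptor passed the test, and both varied widely between libraries of 1 group. Igf1r, the signalling receptor (chromosome 7, 67952827 to 68233668), stood at 52.6, 17.4 and 64.9 CPM with vehicle and at 32.5, 62.2 and 65.7 CPM with ABT263. Vehicle replicate 2 was the lowest library, and the 2 highest were 1 of each group. The log2 fold change was 0.25 (SE 0.51, 95% interval -0.96 to 1.46, edgeR adjusted p = 0.939), 0.13 without ABT263 replicate 2 and -0.14 without vehicle replicate 2. Igf2r, the clearing receptor (chromosome 17, 12682406 to 12769664), stood at 418, 102 and 313 CPM with vehicle and at 220.3, 157 and 355 CPM with ABT263. Vehicle replicate 2 was again lowest, and the groups overlapped throughout. Its log2 fold change was -0.19 (SE 0.55, 95% interval -1.50 to 1.12, edgeR adjusted p = 0.960), and the sign turned without vehicle replicate 1 (0.23) and without ABT263 replicate 2 (0.059). The intervals of both receptors were wide and held 0, so no direction was resolved.

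Igfbp3, the main carrier of IGF1 in blood and the antagonist that the question above singles out (chromosome 11, 7206086 to 7213923), had no lower mean with ABT263. It stood at 37.0, 9.705 and 64.8 CPM with vehicle and at 30.1, 49.7 and 84.6 CPM with ABT263. The highest value was an ABT263 library, the lowest was vehicle replicate 2, and the groups overlapped. Means were 37.2 ± 27.6 and 54.8 ± 27.6 CPM (SD, n = 3), a log2 fold change of 0.56 (SE 0.68, 95% interval -1.07 to 2.19, edgeR adjusted p = 0.877). The interval holds falls as well as rises. Without ABT263 replicate 2 the log2 fold change was 0.63 (SE 0.80), without vehicle replicate 2 or without ABT263 replicate 3 it was 0.10, and without vehicle replicate 3 it was 1.24. The value thus rested on single libraries, though it was above 0 whichever 1 of the 6 libraries was left out.

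The ratio of Igf1 to Igfbp3, both in RPKM, was 2.48, 5.58 and 0.842 with vehicle and 1.13, 0.868 and 0.674 with ABT263. It was highest in vehicle replicate 2, where Igfbp3 was lowest, and the groups overlapped through vehicle replicate 3. In vehicle replicate 2 Igf1r, Igf2r and Igfbp3 were all at their lowest, as were the 8 endothelial markers at 502 CPM, none of them at 0. Pik3ca and the ribosomal protein gene Rpl7, neither of them an endothelial marker, are named after their values were seen. Pik3ca was lowest there (47.2 CPM against 67.5 to 90.0 CPM elsewhere) and Rpl7 was highest (1280 CPM against 597 to 803 CPM). How many of all genes were highest or lowest in this library was not counted. The part of endothelial cells, or of a wider shift of this library, in these values was not tested.

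Igfbp2, a binding protein of broad expression (chromosome 1, 72824503 to 72852474), had the narrowest range of the 10, with 2.08 times between its highest and lowest library. It stood at 138, 159 and 170.2 CPM with vehicle and at 81.7, 152 and 132 CPM with ABT263. ABT263 replicates 1 and 3 lay below every vehicle library, and replicate 2 lay between vehicle replicates 1 and 2. The log2 fold change was -0.35 (SE 0.26, 95% interval -0.98 to 0.28, edgeR adjusted p = 0.764) and, without ABT263 replicate 2, -0.54 (SE 0.28, 95% interval -1.23 to 0.16). As a share of the summed RPKM of the 6 binding proteins, Igfbp2 made up 13.1%, 10.1% and 11.4% with vehicle and 5.66%, 5.70% and 5.36% with ABT263. Every ABT263 share was below every vehicle share, including that of replicate 2. The total it is a share of was itself 718, 1085 and 1019.6 RPKM with vehicle and 989, 1822 and 1692 RPKM with ABT263. Set against the summed RPKM of both ligands, the binding proteins came to 24.2, 61.1 and 56.7 times with vehicle and 88.7, 115 and 88.1 times with ABT263. Each ABT263 library was above each vehicle library in this ratio, which was formed with earlier results known and is given as a description without a test.

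Igfbp7, which binds IGFs weakly and is made by vessel walls (chromosome 5, 77349240 to 77408041), was the most abundant member per length in every library. It stood at 644, 1124 and 984 CPM with vehicle and at 950.2, 1292 and 1810.3 CPM with ABT263. ABT263 replicates 2 and 3 were above all vehicle libraries, while ABT263 replicate 1 lay below vehicle replicates 2 and 3. Means were 918 ± 247 and 1351 ± 433 CPM (SD, n = 3), with a log2 fold change of 0.56 (SE 0.37, 95% interval -0.32 to 1.43, edgeR adjusted p = 0.722) and of 0.59 (SE 0.43) without ABT263 replicate 2. Leaving out ABT263 replicate 3, its highest library, gave 0.29. Igfbp7 held 74.2% to 85.8% of the binding protein RPKM with vehicle and 79.5%, 58.7% and 88.5% in ABT263 replicates 1 to 3. Of its exon bases 7.03% overlap those of Polr2b on the other strand.

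**Figure D2:**
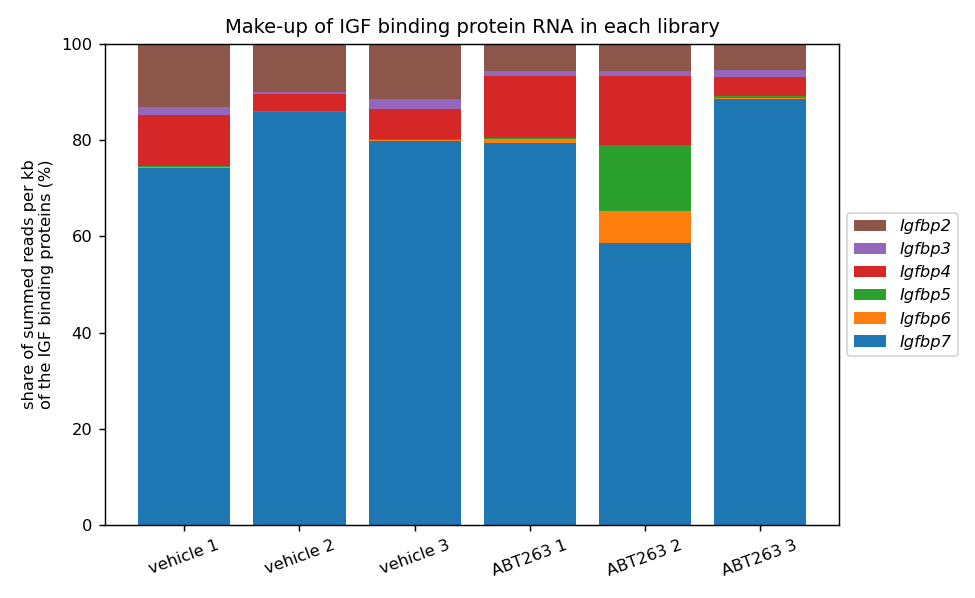
Share of the summed RPKM (CPM per kilobase of exon) of the 6 IGF binding proteins held by each, in percent, for each of the 6 libraries. Igfbp7 fills most of every bar, and Igfbp5 (13.8%) and Igfbp6 (6.62%) are visible shares in ABT263 replicate 2. The share of Igfbp2 is 10.1% to 13.1% with vehicle and 5.36% to 5.70% with ABT263. The total behind the bars differs as well, at 718 to 1085 RPKM with vehicle and 989 to 1822 RPKM with ABT263.

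The promoters of the 3 binding protein genes that were highest in ABT263 replicate 2 are shown because these genes stood together there, to let their sequence be compared. Each is the stretch of 250 bases that ends just before a RefSeq gene start (GRCm38.p6, the assembly that mm10 denotes), read 5′ to 3′ on the gene's strand: Igfbp4 on the forward strand of chr11:99040994-99041243, Igfbp5 on the reverse strand of chr1:72874866-72875115 and Igfbp6 on the forward strand of chr15:102143936-102144185. Capitals mark matches to TATAAA or CCAAT on either strand.
Igfbp4: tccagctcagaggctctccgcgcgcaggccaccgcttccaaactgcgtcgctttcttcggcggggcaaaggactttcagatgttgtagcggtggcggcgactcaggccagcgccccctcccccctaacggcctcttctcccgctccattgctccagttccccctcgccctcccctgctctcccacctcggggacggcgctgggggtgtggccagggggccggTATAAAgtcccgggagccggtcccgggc
Igfbp5: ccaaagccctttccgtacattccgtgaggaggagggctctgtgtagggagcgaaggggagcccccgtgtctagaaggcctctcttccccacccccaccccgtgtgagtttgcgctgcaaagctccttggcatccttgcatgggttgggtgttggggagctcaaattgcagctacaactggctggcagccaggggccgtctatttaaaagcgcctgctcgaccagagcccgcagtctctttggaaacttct
Igfbp6: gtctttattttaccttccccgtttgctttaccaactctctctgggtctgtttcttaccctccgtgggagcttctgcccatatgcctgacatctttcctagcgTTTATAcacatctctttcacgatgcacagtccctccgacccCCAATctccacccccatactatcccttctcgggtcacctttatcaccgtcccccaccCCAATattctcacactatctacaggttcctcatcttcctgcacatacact
Igfbp4 held TATAAA from 28 to 23 bases before its start, in the orientation of the gene. Igfbp6 held it on the opposite strand and farther from the start, along with CCAAT from 107 to 103 and from 50 to 46 bases before the start. These positions count from the RefSeq start. The Igfbp6 window ends at 102144185, short of the GENCODE start of that gene at 102144362, and the bases between were not searched. The Igfbp4 window ends next to its GENCODE start at 99041244. The Igfbp5 window, on the reverse strand, ends at 72874866, past the GENCODE start of that gene at 72874884, so its last bases lie within the annotated gene. The windows are thus not fully alike. Among 32851 promoter windows of the same length, 12.4% held TATAAA and 33.8% held CCAAT on either strand. No window of these 3 genes held the GC box GGGCGG (32.7% of all windows) or a CArG box, the element that serum response factor binds (1.47%). The 3 windows were 69.2%, 58.8% and 49.6% G and C for Igfbp4, Igfbp5 and Igfbp6, against a median of 52.4% over all windows. These are matches of letters and say nothing of which factors bind. The Igfbp5 window held no exact match to any of the 4 motifs, and near matches were not searched for.

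Igfbp4, a binding protein that the protease PAPP-A cuts (chromosome 11, 99041244 to 99054392), stood at 298, 152 and 251.2 CPM with vehicle and at 502, 1027 and 253 CPM with ABT263. ABT263 replicates 1 and 2 were above every vehicle library, and ABT263 replicate 3 lay among them. With all 6 libraries the log2 fold change was 1.34 (SE 0.54, 95% interval 0.049 to 2.64, unadjusted p = 0.0439, edgeR adjusted p = 0.592). It was 0.70 without ABT263 replicate 2 (SE 0.42, 95% interval -0.33 to 1.72) and 1.11 without vehicle replicate 2 (SE 0.61). Pi16, 1 of the 8 adventitial fibroblast markers, was the gene with the pattern most like Igfbp4 among 11805 candidates (Pearson r = 0.99 over 6 libraries, 0.96 without ABT263 replicate 2), followed by Efemp1 (0.99 and 0.96), a matrix glycoprotein. Prpf18 came next (0.98 and 0.96). Pi16 itself stood at 49.7, 13.7 and 46.5 CPM with vehicle and at 117, 488 and 24.6 CPM with ABT263. The 8 fibroblast markers did not share 1 pattern. Of them 5, Pi16 included, were highest in ABT263 replicate 2, as Igfbp4 was. Cd34 was highest in ABT263 replicate 1 (437 CPM), and Lum (2756 CPM) and Col14a1 (406 CPM) were highest in ABT263 replicate 3, where Igfbp4 lay among the vehicle libraries.

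Igfbp5, a binding protein with affinity for extracellular matrix that lies next to Igfbp2 (chromosome 1, 72857932 to 72874884), varied most of all members. It stood at 6.29, 9.98 and 18.0 CPM with vehicle and at 12.1, 1509.5 and 53.6 CPM with ABT263. ABT263 replicate 2 was 28.2 times the next highest library, ABT263 replicate 3 was above all vehicle libraries, and ABT263 replicate 1 lay within their range. The log2 fold change of 5.52 (SE 1.82, 95% interval 1.17 to 9.87, unadjusted p = 0.0203, edgeR adjusted p = 0.592) was 1.53 (SE 0.70, 95% interval -0.20 to 3.25) without ABT263 replicate 2. DESeq2 gave this gene no p-value over all libraries. Its share of the binding protein RPKM was 13.8% in ABT263 replicate 2 and 0.146% to 0.527% in the other libraries.

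Igfbp6, which prefers IGF2 over IGF1 as a ligand (chromosome 15, 102144362 to 102149511), was the one member whose groups did not overlap. It stood at 2.08, 2.14 and 1.375 CPM with vehicle, from 94 to 231 reads, and at 8.40, 134 and 3.58 CPM with ABT263, from 255 to 9052 reads. The log2 fold change was 4.70 (SE 1.41, 95% interval 1.33 to 8.08, unadjusted p = 0.0137, edgeR adjusted p = 0.592). By DESeq2 it passed over all genes (adjusted p = 0.00525), where 0.453% of genes were called higher. Without ABT263 replicate 2 the groups still did not overlap, and the log2 fold change was 1.69 (SE 0.46, 95% interval 0.54 to 2.83, unadjusted p = 0.0115, edgeR adjusted p = 0.99995). DESeq2 without that library gave 1.68 and an adjusted p of 0.0896, so the DESeq2 call was not kept. DESeq2 was not run without any other single library, so whether the call depended on this one in particular was not tested.

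In the library where Igfbp4, Igfbp5 and Igfbp6 were highest, markers of fat were also highest. All 8 white adipocyte markers peaked in ABT263 replicate 2. Their sum ran from 2.34 to 4.61 CPM with vehicle and from 3.72 to 3279.8 CPM with ABT263, and Lep, which encodes the fat hormone leptin, had 0 reads in vehicle replicate 1 and in ABT263 replicates 1 and 3. All 5 mesothelial markers peaked there too, with sums of 0.612 to 2.40 CPM with vehicle and 1.62 to 525 CPM with ABT263. Of 8 adventitial fibroblast markers 5 peaked there, with sums of 1302 to 1683 CPM against 1953 to 3560 CPM, and all 8 contractile smooth muscle markers did, with sums of 2608 to 3593 CPM against 2407 to 15763 CPM. The part of these cell types in the levels of Igfbp4, Igfbp5 and Igfbp6 was not tested. ABT263 replicates 1 and 3 held 5.23 and 3.72 CPM of the white adipocyte markers. They held 1953 and 3560 CPM of the fibroblast markers, of which Lum alone gave 1268 and 2756 CPM. Both fibroblast sums were above every vehicle library, as Igfbp6 was at 8.40 and 3.58 CPM, though these libraries ranked in the opposite order. Taken singly, 0 of the 8 fibroblast markers had groups that did not overlap.

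**Figure D3:**
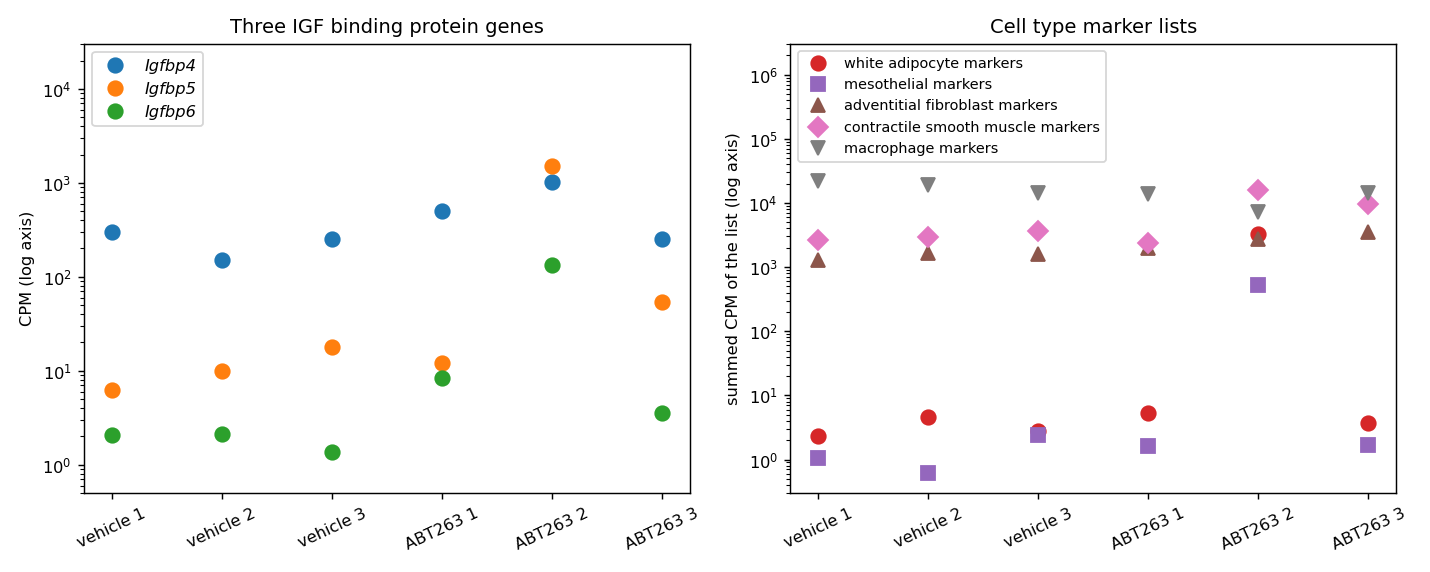
Left, CPM (log axis) of Igfbp4, Igfbp5 and Igfbp6 in each library; right, summed CPM (log axis) of 5 cell type marker lists in the same libraries. ABT263 replicate 2 holds 1509.5 CPM of Igfbp5 and 134 CPM of Igfbp6 together with 3279.8 CPM of white adipocyte and 525 CPM of mesothelial markers, which stay at 5.23 CPM or below in the other 5 libraries.

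**Figure D4:**
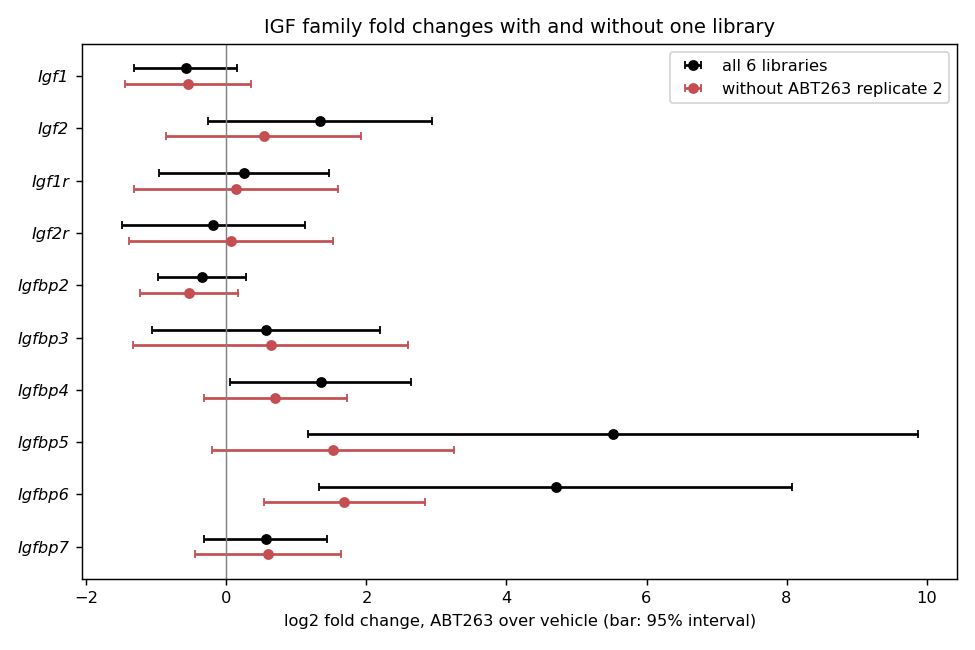
Log2 fold change (ABT263 over vehicle, edgeR) of the 10 IGF family genes with 95% intervals, over all 6 libraries (black) and without ABT263 replicate 2 (red). Igfbp5 moves from 5.52 to 1.53 and Igfbp6 from 4.70 to 1.69, and Igfbp6 is the one gene whose interval lies above 0 in both fits.

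Genes that act on IGFs outside the 10 members went in both directions. Of 15 listed, 11 were kept by the filter, 7 with a positive and 4 with a negative fold change (median 0.38, against 0.00080 over all genes), and 0 passed the adjusted threshold of edgeR. Igfbp1, the binding protein that the liver secretes, had 2 reads in all, both in vehicle replicate 2. At an unadjusted p under 0.05, 2 were higher, Htra3 and Stc1 (4.70% of all genes were), and 0 were lower (3.68%). Without ABT263 replicate 2, 0 were lower (2.73% of all genes were) and 1 was higher (1.50%), Htra3. This gene encodes a secreted serine protease with an IGF binding protein domain and stood at 64.1, 57.2 and 49.8 CPM with vehicle and at 83.7, 212 and 178 CPM with ABT263. Its groups did not overlap, with a log2 fold change of 1.47 (SE 0.35, unadjusted p = 0.00489, edgeR adjusted p = 0.592) and of 1.20 without ABT263 replicate 2. Stc1, which encodes the PAPP-A inhibitor stanniocalcin 1, stood at 0.240 to 0.288 CPM with vehicle and at 0.496, 5.41 and 0.799 CPM with ABT263. Its log2 fold change was 3.10 (SE 0.98), and 1.32 when ABT263 replicate 2 was left out. Over all 6 libraries, groups did not overlap on the higher side for 2 of the list, Htra3 and Stc1, against 5.68% of all genes. On the lower side this held for 1, Igf2bp3, against 6.31% (log2 fold change -1.54, SE 0.65), which is named after its values were seen.

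Pappa itself, the protease that cuts IGFBP4, stood at 1.82, 3.12 and 4.36 CPM with vehicle and at 1.26, 5.05 and 9.12 CPM with ABT263, with groups that overlapped. Htra1, a protease that cleaves several binding proteins, had means of 416 ± 145 CPM with vehicle and 416 ± 81.1 CPM with ABT263. The insulin receptor Insr, which can pair with the IGF1 receptor, stood at 46.3, 19.8 and 49.1 CPM against 33.0, 71.4 and 45.9 CPM, lowest in vehicle replicate 2 as Igf1r was. Neither Pappa (log2 fold change 0.73, SE 0.71) nor Insr (0.38, SE 0.42) passed the threshold, and without ABT263 replicate 2 the values were 0.74 and 0.046. Without ABT263 replicate 2 the list had 6 positive and 5 negative fold changes and a median of 0.039.

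The 9 IGFBP-related proteins, which share the N-terminal domain of the family or were once numbered with it, were split between 4 positive and 5 negative fold changes (median -0.027, or 0.18 without ABT263 replicate 2), with 0 past the adjusted threshold. Nov, a matricellular protein of vessels, was the 1 of 9 higher at an unadjusted p under 0.05 (4.70% of all genes were), and 0 of 9 were without ABT263 replicate 2. It stood at 165, 169 and 199.5 CPM with vehicle and at 145, 952 and 699.9 CPM with ABT263, so that replicates 2 and 3 were above all vehicle libraries and replicate 1 below them (log2 fold change 1.75, SE 0.63, or 1.25 without ABT263 replicate 2). Esm1, the endothelial proteoglycan endocan, had the next smallest p of the list, with 4.26 ± 2.71 CPM against 7.77 ± 3.93 CPM (log2 fold change 0.87, SE 0.66, or 0.84 without that library).

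Growth hormone drives Igf1 in the liver through JAK2 and STAT5, and the 8 genes of this input had 4 positive and 4 negative fold changes (median -0.033). Socs2, a STAT5 target that dampens the growth hormone receptor, stood at 15.8, 18.5 and 20.3 CPM with vehicle and at 26.4, 23.6 and 23.7 CPM with ABT263. All 3 ABT263 libraries were above all vehicle libraries, with a log2 fold change of 0.43 (SE 0.17, unadjusted p = 0.0407, edgeR adjusted p = 0.592) and of 0.46 without ABT263 replicate 2. The receptor Ghr stood at 33.9, 33.5 and 53.0 CPM against 40.4, 98.8 and 68.2 CPM (log2 fold change 0.79, SE 0.36, edgeR adjusted p = 0.601, or 0.44 without ABT263 replicate 2). Socs2 was the 1 gene of 8 at an unadjusted p under 0.05 on the higher side (4.70% of all genes were), 0 were lower (3.68%), and 0 passed the adjusted threshold of edgeR. Over the 5 libraries other than ABT263 replicate 2 the split was 2 positive and 6 negative (median -0.056). In that fit Socs2 had an unadjusted edgeR p of 0.0724, and Socs1, another inhibitor of JAK signalling named after its values were seen, was lower at 0.0411 (log2 fold change -2.88, with 24.4 CPM in vehicle replicate 2 against 1.32 to 4.46 CPM in the others).

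Downstream of the IGF1 receptor, 33 of 33 listed genes were kept, 23 with a positive and 10 with a negative fold change, with a median of 0.095. At an unadjusted p under 0.05, 2 were higher and 2 lower (4.70% and 3.68% of all genes were, and 50.1% had a positive fold change), and 0 passed the adjusted threshold of edgeR. Pik3cd, the PI3 kinase subunit of leukocytes, stood at 132, 178 and 111 CPM with vehicle and at 100.04, 51.3 and 83.0 CPM with ABT263. Its log2 fold change was -0.85 (SE 0.31), and -0.61 over the 5 libraries other than ABT263 replicate 2. Grb2, an adaptor to the MAP kinase pathway, stood at 263, 225 and 203 CPM against 171, 122 and 169 CPM (log2 fold change -0.58, SE 0.22, or -0.43 over those 5). Both were lower in all 3 ABT263 libraries, as the marker sums of macrophages were and those of T cells (82.2 to 129.9 CPM against 24.7 to 69.8 CPM). The macrophage sums lay close, at 14285 CPM for the lowest vehicle and 14137 CPM for the highest ABT263 library. Groups did not overlap on the lower side for 6 of 10 macrophage and 6 of 6 T cell markers, against 6.31% of all genes. The part of leukocytes in these values was not tested. Among the higher genes was the adaptor gene Grb14, named after its values were seen (log2 fold change 1.21, SE 0.48, or 0.79 without ABT263 replicate 2). Over the 5 libraries other than ABT263 replicate 2, 0 of the 33 were at an unadjusted p under 0.05. The insulin receptor substrates Irs1 and Irs2, which dock to the activated receptor, differed in their values, with a log2 fold change of 1.12 for Irs1 (SE 0.47) and of 0.17 for Irs2 (SE 0.46, or -0.078 without ABT263 replicate 2), a difference that was not tested. Irs1 stood at 8.54, 6.13 and 8.07 CPM against 6.995, 26.4 and 16.0 CPM, and its log2 fold change was 0.61 without ABT263 replicate 2. With vehicle replicate 2 and ABT263 replicate 2 both left out, the split of the 33 turned to 10 positive and 23 negative (median -0.071).

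Igf2 belongs to a set of imprinted growth genes, and 9 of 13 such genes were kept, 5 with a positive and 4 with a negative fold change (median 0.57). H19, the neighbour of Igf2 that is expressed from the other parental copy, stood at 8.08, 5.59 and 14.4 CPM with vehicle and at 5.15, 4.52 and 6.63 CPM with ABT263, opposite in sign to Igf2 (log2 fold change -0.78, SE 0.40, edgeR adjusted p = 0.638, or -0.66 without ABT263 replicate 2). At an unadjusted p under 0.05, 2 were higher, Gpc3 and Nnat (4.70% of all genes were), and 0 lower (3.68%), and 0 passed the adjusted threshold of edgeR. Both were high in ABT263 replicate 2. Gpc3, a glypican, stood at 0.0928 to 0.527 CPM with vehicle and at 0.258, 199 and 0.982 CPM with ABT263. Nnat, neuronatin, stood at 37.8 CPM in that library and at 0.659 to 1.18 CPM in the other 5. Without ABT263 replicate 2 the list's median was 0.11, and 0 genes were at an unadjusted p under 0.05 in either direction.

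Patterns most like those of the other members were named by Pearson r over the 6 libraries among 11805 genes, as a description of 6 points. Igf2r was closest to Scarb2, a lysosomal membrane protein that carries glucocerebrosidase (r = 0.996), and to Cpd (0.994). For Igfbp3 the closest genes were Pcdhga10 (0.998), Zc3hav1l (0.996) and the matrix proteoglycan gene Vcan (0.996, and 0.996 without ABT263 replicate 2). Igfbp7 was closest to Adamtsl5 (0.980, and 0.983 without ABT263 replicate 2). Next came Pmepa1, a target of TGF-beta (0.979 and 0.977), and Pcolce, which aids collagen maturation (0.978 and 0.998). Igf1r was closest to Atxn1 (0.998), Igf1 to Tecpr2 (0.982), Igfbp2 to Srrm1 (0.981), Igf2 to Rtn4rl1 (0.998), Igfbp5 to Gfpt2 (0.997) and Igfbp6 to S1pr3 (0.994). For Igfbp5 and Igfbp6 these values fell to 0.976 and 0.952 without ABT263 replicate 2.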

How the data were processed

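RNA of aortic arch plaque was extracted with the RNeasy Micro kit and sequenced from TruSeq v2 libraries, per the labels' protocols. The authors deposited raw counts for each gene symbol. Per the submitters' processing notes, the build was mm10 and the tools named were featureCounts 1.4.6, Subread, Bowtie2 2.2.6 and TopHat2 2.0.14. The sources used here do not give the annotation, the strand setting or how multimapping reads were treated. The kit does not mark strand, so antisense reads could not be told apart.

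Groups came from sample titles, and replicates were numbered in accession order. In R 4.3.3, genes were kept by filterByExpr (minimum count 10, minimum total 15), scaled by TMM and tested by quasi-likelihood in edgeR 4.0.16 with group as the single term (4 residual degrees of freedom), with Benjamini-Hochberg adjustment over all 15222 genes. The SE is |log2 fold change|/√F. DESeq2 1.42.0, limma-voom (limma 3.58.1), other scalings and filters, and fits without single libraries were alternatives. On simulated counts for these genes the procedure was tested before use. The named genes were all 10 members, the 2 of smallest p in each pathway list with 8 listed outright, and the 3 genes most like each member (no clone or predicted-gene symbol, mean log2 CPM, with a prior count of 2, of at least 1), of which not all are given. One gene of the signalling list is not reported here by name. Members and lists were chosen with earlier results of these data known. Cyr61, Ctgf, Nov, Wisp1, Wisp2 and Emr1 are the table's older symbols. Positions and exon lengths came from GENCODE M21, promoters from RefSeq, where all 10 members matched.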

Additional observations from a re-analysis of the deposited data

How the results depend on the processing

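No paired analysis was possible because the sample titles give the groups no shared replicate numbers. DESeq2 called 153 genes and 1 member (Igfbp6, log2 fold change 4.67, adjusted p = 0.00525) where edgeR called 0 and 0, and, in an alternative chosen after seeing the data, DESeq2 without ABT263 replicate 2 called 118 genes and 0 members. The 3 members higher at an unadjusted p under 0.05 became 0 with limma-voom and 1 with both replicates 2 left out, and 0 to 3 over the fits that left out 1 library (0 without vehicle replicate 2, 1 without vehicle replicate 1 and 1 without ABT263 replicate 2). Members whose groups did not overlap ranged from 1 to 4 on the higher side and from 0 to 1 on the lower side over those fits. Without ABT263 replicate 2 the shares of all genes were 8.31% and 9.12%, and those of the other fits are not given here. On the lower side the count was also 1 without both replicates 2, and 1 with DESeq2 without ABT263 replicate 2. Without both replicates 2, groups did not overlap for 2903 of 15122 genes on the higher side and for 2988 on the lower side. These counts are therefore not read as a change in the members. The sign of Igf1r turned without vehicle replicate 2 (-0.14) and without both replicates 2 (-0.26), and that of Igf2r turned without vehicle replicate 1 (0.23), without ABT263 replicate 2 (0.059) and by DESeq2 without ABT263 replicate 2 (0.055). The cause of these changes was not tested. Igf1r otherwise reached up to 0.61 (without vehicle replicate 3) and Igf2r down to -0.59 (without vehicle replicate 2). The other 8 members kept their direction in all 14 alternatives, with log2 fold changes of -0.80 to -0.29 for Igf1, 0.51 to 1.78 for Igf2, -0.54 to -0.14 for Igfbp2, 0.10 to 1.24 for Igfbp3, 0.46 to 1.71 for Igfbp4, 1.43 to 6.09 for Igfbp5, 1.68 to 5.25 for Igfbp6 and 0.29 to 0.76 for Igfbp7. Library totals without TMM shifted the median of all genes to 0.092. Each of the 10 members had at least 94 reads in every library.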

Other observations

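A pair of IGF system genes at or near 0 in 5 libraries was detected in ABT263 replicate 2, and they are named here after their values were seen. Igfals, the acid-labile subunit that stabilises IGF complexes in blood, stood at 3.74 CPM there and at no more than 0.0207 CPM in the other 5 libraries. Igf2bp1, an RNA-binding protein of Igf2 transcripts, stood at 0.964 CPM there and at no more than 0.0293 CPM elsewhere. Both failed the filter on low counts, so no test was run.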
